A study of Homo sapiens with 414 samples.

Results

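Dexamethasone, a synthetic glucocorticoid, was given at 100 µM to H1-NPC, neural progenitors differentiated from the H1 line of human embryonic stem cells, and RNA was read on 11 days between day 1 and day 39. All 11 libraries whose compound label is Dexamethasone were taken, of 414 libraries in the series. They were set against the 148 libraries of the 16 compounds classified as non-toxic, DMSO at 0.1% among them, always on the same day. Days 1 to 6 held 5 Dexamethasone and 79 non-toxic libraries, and days 8 to 39 held 6 and 69. A further 255 libraries came from 28 other compounds classified as toxic, the class that also holds Dexamethasone. All cultures were exposed from the day of seeding, whole wells were lysed, and each compound gave at most 1 library per day. A day held 7 to 16 non-toxic libraries, and a range over fewer libraries is easier to fall outside. The Dexamethasone libraries are therefore wells of different days at a single dose. The labels do not say whether wells came from separate cell batches, so p-values measure the spread between wells, most of them non-toxic. Library titles carry the mark Hi in the toxic class, Dexamethasone included, and the mark C in the non-toxic class. Any difference in handling between these series could not be told apart from the difference between Dexamethasone and the non-toxic compounds.

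Glucocorticoids bind the glucocorticoid receptor, encoded by NR3C1, which moves to the nucleus and raises or lowers transcription at its binding sites. FKBP5 and TSC22D3 are among its best known targets. Cholesterol supply is governed by a separate loop. When sterols in the endoplasmic reticulum are scarce, SREBP2, the product of SREBF2, is released with the help of its escort SCAP and switches on the genes of cholesterol synthesis and uptake. When oxysterols are plentiful, the liver X receptors (LXR) switch on the exporters ABCA1 and ABCG1. Cells of the nervous system make most of their own cholesterol.

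Expression is given as TPM, a unit that takes account of transcript length and sums to the same total in every library. The read depth behind these values is unknown. Differences are Dexamethasone minus non-toxic on the log2 scale of TPM plus 1, with the SE of the fit, and understate changes of genes near 0. The model (limma) held a level for each day and an estimated correlation between libraries of a compound. That correlation was 0.02535 early and 0.01711 late, so the Dexamethasone libraries counted almost as independent. In the comparison with the other toxic compounds it was 0.5312, and SEs there were larger. A gene rose or fell where its Benjamini-Hochberg adjusted p over 16318 tested genes was under 0.05. Means of TPM carry the SD over the libraries of a window. The Dexamethasone libraries held 13192 to 14355 genes at 1 TPM or more, and none was identical to another library. The Dexamethasone libraries of days 4, 15 and 21 read lower for longer transcripts than the non-toxic libraries did, with slopes of -0.0759, -0.153 and -0.117 log2 units per log2 unit of length. The lowest non-toxic slopes on those days were -0.0111, -0.00463 and -0.0147. The median slopes of the other toxic libraries were -0.0363, -0.0558 and -0.188, so such slopes were not particular to Dexamethasone. On days 15 and 21, with 7 and 11 non-toxic libraries, 47.9% and 45.1% of tested genes lay below every non-toxic library of the day. The Dexamethasone library of day 39 also stood apart, though its slope of 0.0118 was inside the non-toxic range. There 29.7% of tested genes lay above and 20.9% below every non-toxic library. The ibuprofen library of day 8, a non-toxic one, also stood apart, with a slope of -0.439. Counts are therefore also given without the Dexamethasone libraries of days 4, 15 and 21. In these whole-well samples, fewer cells of a type and less RNA per cell cannot be told apart.

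In days 1 to 6, 961 genes (5.89% of those tested) rose with Dexamethasone and 2053 (12.6%) fell. With each library centred on its median, 1196 rose and 1647 fell. In days 8 to 39, 583 (3.57%) rose and 1052 (6.45%) fell, and over all 11 days 855 (5.24%) rose and 1599 (9.80%) fell. Without the Dexamethasone libraries of days 4, 15 and 21 the early counts were 909 (5.57%) and 1313 (8.05%) and the late counts 441 (2.70%) and 405 (2.48%), or 5.18% in all. Without the ibuprofen library of day 8 the late counts were 1035 and 2942. Against the DMSO libraries alone most calls were rises, 52 against 8 falls early and 89 against 12 late. The effect differed between the windows in 877 genes (5.37%), and in 309 (1.89%) without the libraries of days 4, 15 and 21. The early and late rises shared 293 genes, 30.5% of the early and 50.3% of the late list. The falls shared 260 genes, 12.7% and 24.7%. The Dexamethasone library lay above every non-toxic library of its day on all 5 early days in 154 genes (0.944%), on all 6 late days in 115 genes (0.705%) and on all 11 days in 71 genes (0.435%). It lay below every non-toxic library on all 5 early days in 100 genes (0.613%), on all 6 late days in 6 genes (0.0368%) and on all 11 days in 1 gene, ABCG1 (0.00613%). Counts of list members below are to be read beside these shares of all tested genes.

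Genes of cholesterol synthesis rose early and stayed raised. Of 20 genes of the pathway, all tested, 19 rose in days 1 to 6 and 19 in days 8 to 39, and the counts were the same without the libraries of days 4, 15 and 21. The median difference was 1.02 early and 1.31 late, against -0.02 and -0.05 over all tested genes. These 19 genes stood above the non-toxic range on every day. On day 1 the median same-day difference of the list was already 1.40. It lay between 0.83 and 0.95 on days 2 to 6, and between 1.17 and 1.47 from day 8 on. The exception was PMVK, the kinase that follows MVK in the mevalonate route, with 0.04 ± 0.04 early (adjusted p = 0.646) and 0.18 ± 0.10 late (adjusted p = 0.286, limma).

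The promoters of 3 genes that rose are shown because SREBP is known to act together with NF-Y, a factor that binds CCAAT, at genes of this pathway. The sequences are RefSeq windows of GRCh38.p14, from 250 bases before to 50 after the start site, written 5′ to 3′ along the gene. The expression files use hg19, and no coordinate was carried between the builds. Capitals mark CCAAT and a sterol regulatory element searched as TCACNCCAC, each on either strand, so CCAAT also appears as ATTGG. The MVD window is chr16:88663042-88663341 on the minus strand, that of TMEM97 is chr17:28318950-28319249 on the plus strand and that of SREBF2 is chr22:41832855-41833154 on the plus strand.
MVD: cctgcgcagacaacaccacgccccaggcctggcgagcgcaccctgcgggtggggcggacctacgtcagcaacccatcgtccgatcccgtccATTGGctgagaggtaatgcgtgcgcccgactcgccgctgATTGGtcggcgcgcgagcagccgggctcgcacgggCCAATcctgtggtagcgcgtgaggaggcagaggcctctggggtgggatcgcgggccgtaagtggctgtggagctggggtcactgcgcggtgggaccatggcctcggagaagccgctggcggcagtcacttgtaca
TMEM97: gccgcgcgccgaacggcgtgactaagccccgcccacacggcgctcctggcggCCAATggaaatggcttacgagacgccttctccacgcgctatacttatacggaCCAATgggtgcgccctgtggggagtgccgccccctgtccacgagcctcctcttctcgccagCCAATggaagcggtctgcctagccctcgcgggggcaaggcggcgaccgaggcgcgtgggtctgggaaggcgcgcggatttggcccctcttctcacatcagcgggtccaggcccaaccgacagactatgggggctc
SREBF2: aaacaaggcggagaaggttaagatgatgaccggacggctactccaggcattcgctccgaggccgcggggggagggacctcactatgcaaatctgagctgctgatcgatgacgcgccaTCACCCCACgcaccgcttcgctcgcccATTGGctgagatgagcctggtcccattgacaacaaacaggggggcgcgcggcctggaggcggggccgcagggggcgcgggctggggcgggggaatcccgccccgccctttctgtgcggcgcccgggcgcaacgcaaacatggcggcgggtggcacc
MVD and TMEM97 each hold 3 CCAAT boxes, 85 to 159 bases before the start site in MVD and 85 to 198 in TMEM97. SREBF2 holds 1 sterol regulatory element at 133 bases before its start site and 1 CCAAT box at 106 bases. Of the 20 synthesis genes, 14 matched the promoter table by symbol, and 12 of these (85.7%) had a CCAAT box. Of the 11783 tested genes that matched, 5026 (42.7%) did, as did 34.6% of all 35116 windows. The share was 72.7% of 11 sterol sensing genes, 71.4% of 14 fatty acid synthesis genes and 65.4% of 26 glucocorticoid-induced genes, also above that of the tested genes. The sterol regulatory element in this spelling was in 0 of the 14 genes, in 187 (1.59%) of the 11783 tested genes and in 1.13% of all windows. At so low a share the 0 cannot be read as an absence particular to the pathway. Of the 11 sterol sensing genes 1 held it, the SREBF2 shown. A match describes letters and not binding.

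MVD, which completes the mevalonate route by making isopentenyl pyrophosphate, had 687, 510, 467, 552 and 762 TPM in the Dexamethasone libraries of days 1, 2, 3, 4 and 6, against non-toxic medians of 146, 193, 188, 229 and 291 TPM. From day 8 to day 39 it had 1071, 982, 859, 930, 604 and 519 TPM with Dexamethasone, against non-toxic medians of 313, 292, 162, 228, 200 and 112 TPM. The groups did not overlap on any day. The closest non-toxic value was on day 8, with 946 TPM in the ibuprofen library. The fitted difference was 1.51 ± 0.06 early and 1.92 ± 0.10 late (adjusted p = 1.69e-37 and 8.10e-26, limma). The late effect exceeded the early one by 0.41 ± 0.12 (adjusted p = 0.0157), but by 0.22 (adjusted p = 0.500) without the libraries of days 4, 15 and 21.

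**Figure D1:**
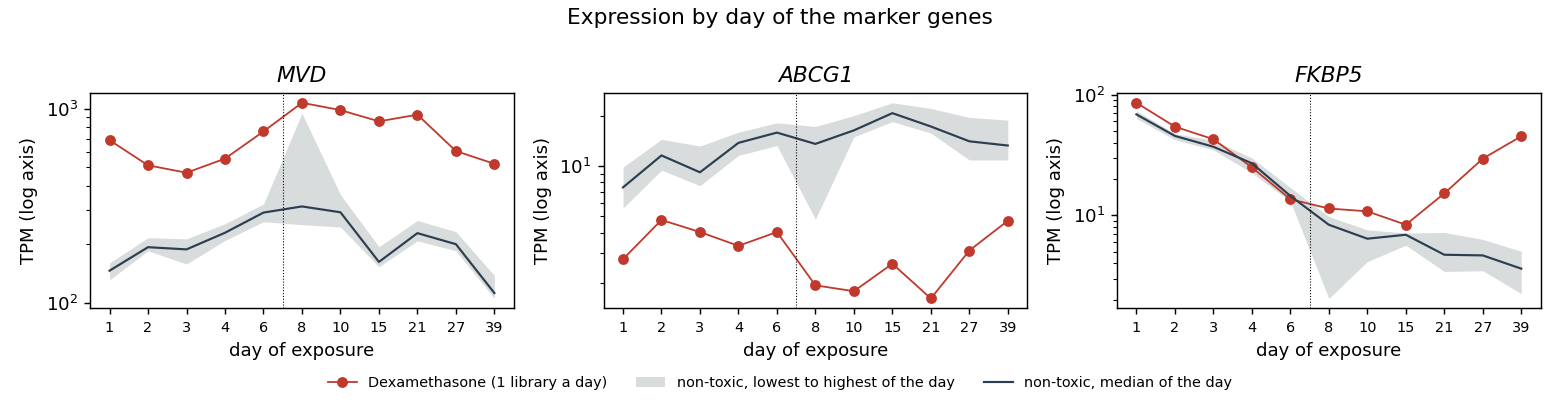
TPM on a log axis against the day of exposure for MVD, ABCG1 and FKBP5, with 1 Dexamethasone library per day in red, the lowest to highest non-toxic library of the day as a grey band and the non-toxic median as a dark line. MVD lies above and ABCG1 below the band on all 11 days, while FKBP5 lies above it on days 1 to 3, inside it on days 4 and 6, and above it on all 6 days from day 8.

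Steps before and after it moved the same way. HMGCS1, which makes HMG-CoA, averaged 1784 ± 250 TPM with Dexamethasone and 746 ± 97.2 TPM in non-toxic libraries early, and 1949 ± 441 against 657 ± 140 TPM late (SD). SQLE, the squalene epoxidase, rose by 0.81 ± 0.03 early and 1.23 ± 0.09 late.

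The last steps rose too. DHCR7, which reduces 7-dehydrocholesterol to cholesterol, had 318 to 461 TPM in the 5 early Dexamethasone libraries, against day medians of 130 to 154 TPM in non-toxic libraries. Late it had 349 to 556 TPM, against day medians of 108 to 157 TPM. The difference was 1.31 ± 0.04 early and 1.79 ± 0.07 late. TM7SF2, a sterol C14 reductase, rose by 1.11 ± 0.06 early and 1.66 ± 0.07 late, and EBP, a sterol isomerase, by 1.00 ± 0.04 and 1.47 ± 0.07. Between the windows, 15 of the 20 genes gained and 0 lost, where 2.10% of all tested genes gained and 3.27% lost. Without the libraries of days 4, 15 and 21, 10 of 20 gained, against 0.876% of all tested genes.

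**Figure D2:**
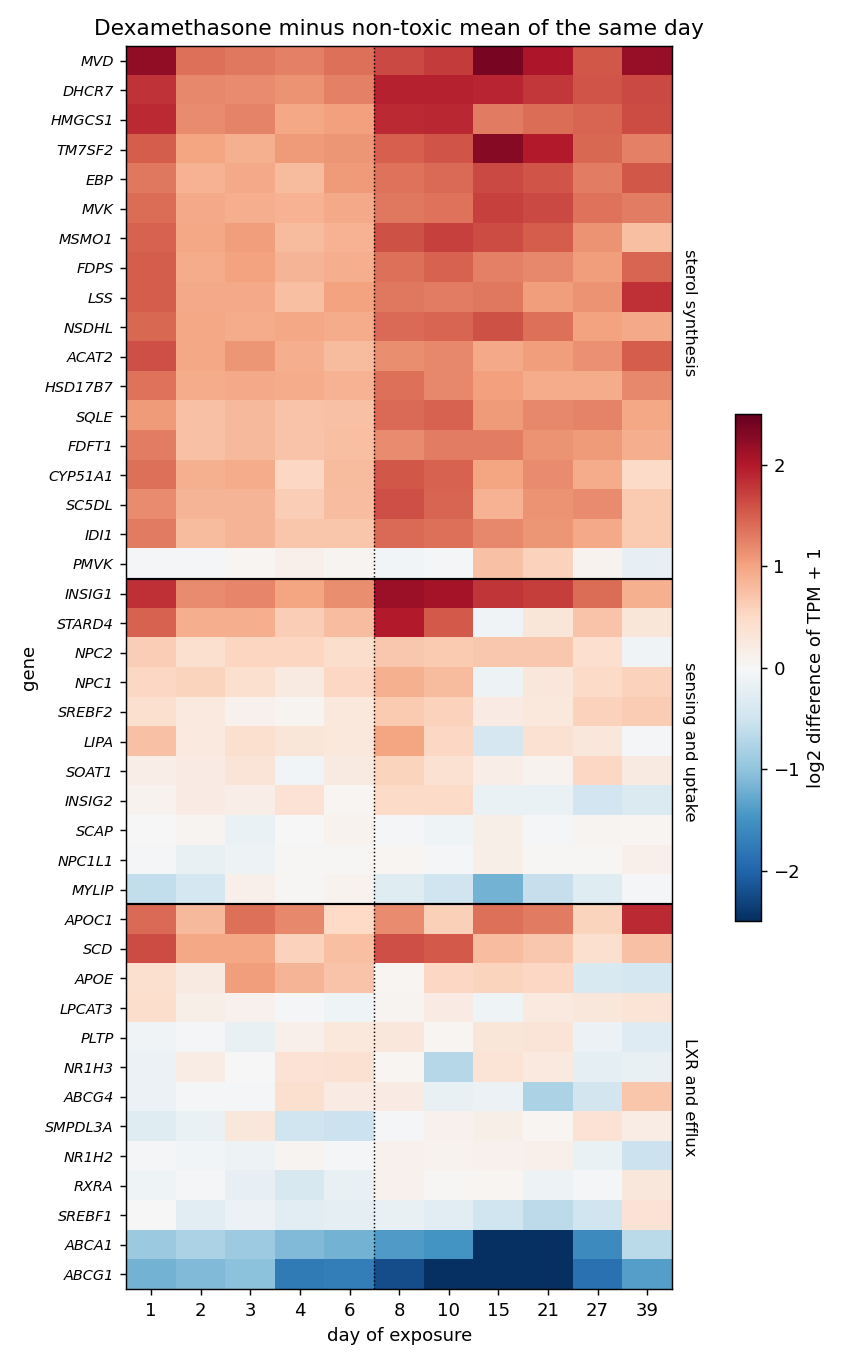
Log2 difference of TPM + 1 between the Dexamethasone library and the non-toxic mean of the same day (colour, red higher and blue lower, with limits at 2.5) by day of exposure, for genes of sterol synthesis, of sensing and uptake and of the LXR and efflux list. Red fills the synthesis genes drawn on all 11 days except PMVK, and ABCA1 and ABCG1 are blue on all 11 days.

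Genes of sterol sensing and uptake moved less evenly. Rises took in 5.89% of all tested genes early and 3.57% late, and falls 12.6% and 6.45%. Of 13 tested members, 10 rose and 0 fell in days 1 to 6, and 8 rose and 1, MYLIP, fell in days 8 to 39. Without the libraries of days 4, 15 and 21 the rises were 9 early and 9 late, and none fell. INSIG1, which holds SCAP in the endoplasmic reticulum when sterols are plentiful and is itself an SREBP target, rose by 1.28 ± 0.05 early and 1.66 ± 0.11 late. STARD4, a carrier of cholesterol between membranes, rose by 0.94 ± 0.06 and 0.80 ± 0.18. On day 15 STARD4 stood at 22.1 TPM, inside the non-toxic range of 18.3 to 26.9 TPM, and it was above the range on the other 10 days. SREBF2 rose by 0.22 ± 0.02 early and 0.49 ± 0.15 late (adjusted p = 2.01e-12 and 0.0222, limma). NPC1 and NPC2, which move cholesterol out of lysosomes, rose by 0.44 ± 0.04 and 0.50 ± 0.04 early and by 0.48 ± 0.12 and 0.50 ± 0.06 late. SCAP and the absorption gene NPC1L1 were called in neither window.

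TMEM97, the sigma-2 receptor and a binding partner of NPC1, had 481, 352, 297, 266 and 255 TPM in the early Dexamethasone libraries, against non-toxic medians of 140, 142, 119, 112 and 95.9 TPM. From day 8 it had 439, 412, 254, 297, 281 and 115 TPM, against medians of 82.0, 62.8, 42.9, 48.6, 60.4 and 32.5 TPM. Dexamethasone stayed above the non-toxic range on all 11 days. The difference was 1.40 ± 0.03 early and 2.38 ± 0.09 late, a gain of 0.98 ± 0.09 (adjusted p = 1.79e-17, limma) that was 0.84 (adjusted p = 2.13e-10) without the libraries of days 4, 15 and 21. C14orf1, now named ERG28, which in yeast is a scaffold of the sterol demethylation enzymes, averaged 203 ± 44.4 TPM with Dexamethasone and 94.1 ± 8.51 TPM in non-toxic libraries early, and 307 ± 38.7 against 122 ± 12.3 TPM late.

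The sterol exporters went the other way. ABCG1, which passes cholesterol to HDL, had 2.77, 4.76, 4.03, 3.33 and 4.03 TPM in the early Dexamethasone libraries, against non-toxic medians of 7.46, 11.6, 9.19, 13.8 and 15.9 TPM. Late it had 1.93, 1.78, 2.60, 1.61, 3.12 and 4.71 TPM, against medians of 13.6, 16.4, 20.8, 17.3, 14.1 and 13.3 TPM. The lowest non-toxic value of the late window, 4.81 TPM, was again the ibuprofen library of day 8. ABCG1 differed by -1.36 ± 0.08 early and -2.26 ± 0.13 late (adjusted p = 1.74e-24 and 3.79e-25, limma), and the change between windows was -0.90 ± 0.15 (adjusted p = 2.28e-06). ABCA1, which loads cholesterol onto apolipoprotein A-I, averaged 3.51 ± 0.732 TPM with Dexamethasone and 7.87 ± 1.01 TPM in non-toxic libraries early, and 2.24 ± 1.93 against 9.16 ± 4.25 TPM late. It fell by 0.98 ± 0.07 early and by 1.70 ± 0.19 late, and was below the non-toxic range on every day but day 8.

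The LXR list was mixed. Among all tested genes, 5.89% rose and 12.6% fell early, and 3.57% rose and 6.45% fell late. Of 14 tested LXR members, the exporters included, 3 rose and 4 fell early, and 2 rose and 4 fell late. The late falls were 2 without the libraries of days 15 and 21. The early rises were APOE, APOC1 and SCD. APOC1, a small apolipoprotein, rose by 1.06 ± 0.28 early and 1.14 ± 0.25 late. APOE, the main lipid carrier of the brain, rose by 0.64 ± 0.09 early and differed by 0.13 ± 0.14 late (adjusted p = 0.663, limma). SREBF1, an LXR target that encodes the SREBP of fatty acid synthesis, fell by 0.19 ± 0.04 early and by 0.29 ± 0.07 late. MYLIP, an LXR-induced ubiquitin ligase, fell by 0.48 ± 0.11 late. Without the libraries of days 15 and 21 the late differences were -0.15 for SREBF1 (adjusted p = 0.353) and -0.29 for MYLIP (adjusted p = 0.215). NR1H3, which encodes LXR alpha, averaged 7.40 ± 2.20 TPM with Dexamethasone and 8.00 ± 2.22 TPM in non-toxic libraries late, and was called in neither window.

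Most genes of fatty acid synthesis rose, where 5.89% of all tested genes rose early and 3.57% late. Of 16 tested, 12 rose and 1, SREBF1, fell in days 1 to 6, and 12 rose and 1, again SREBF1, fell in days 8 to 39, with medians of 0.54 and 0.68. ACSS2, which makes acetyl-CoA from acetate, had 179, 81.1, 77.5, 74.2 and 75.9 TPM early with Dexamethasone, against medians of 32.2, 31.7, 32.1, 33.8 and 32.9 TPM. It rose by 1.47 ± 0.07 early and 1.54 ± 0.07 late. FASN, the fatty acid synthase, rose by 0.80 ± 0.05 early and 1.57 ± 0.12 late, a gain of 0.77 ± 0.12 (adjusted p = 1.79e-06, limma). On day 39 FASN stood at 565 TPM with Dexamethasone, against a non-toxic range of 120 to 153 TPM. SCD, the stearoyl-CoA desaturase, rose by 0.98 ± 0.05 and 0.96 ± 0.13, the lipid droplet protein gene PNPLA3 by 1.37 ± 0.09 and 1.73 ± 0.17, and the desaturase FADS2 by 0.74 ± 0.03 and 1.01 ± 0.08.

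Other lipid genes were among the largest rises. PLA2G3, a secreted phospholipase A2, had 39.5, 24.4, 20.8, 15.9 and 12.3 TPM early with Dexamethasone, against medians of 6.43, 8.75, 5.86, 5.08 and 3.28 TPM. Late it had 8.46 to 15.7 TPM, against day medians of 0.785 to 2.79 TPM. It rose by 1.70 ± 0.09 early and 2.46 ± 0.13 late. APOD, a lipocalin that carries small lipids, rose by 1.87 ± 0.16 and 2.21 ± 0.21, and on day 39 reached 118 TPM with Dexamethasone, against 2.36 to 7.73 TPM. FABP3, a fatty acid binding protein, rose by 1.40 ± 0.13 and 1.37 ± 0.13 and was above the range on all 11 days. CPT1A, which takes fatty acids into mitochondria, rose by 1.62 ± 0.26 and 1.71 ± 0.28, yet was above every non-toxic library on 3 of 11 days. The highest non-toxic value of CPT1A was in naproxen sodium on days 8 and 15 and in ibuprofen on all other days. Of 18 tested genes of PPAR and fatty acid oxidation, 5 rose and 2 fell early, and 5 and 2 late. The shares of all tested genes were 5.89% and 12.6% early, and 3.57% and 6.45% late. Once the libraries of days 4, 15 and 21 were left out, 4 rose and 1 fell early, and 4 rose and 0 fell late.

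The receptor for the drug was expressed at a low level. NR3C1 had 4.48, 3.18, 2.82, 2.43 and 3.26 TPM early with Dexamethasone, against medians of 3.78, 2.63, 2.38, 2.47 and 1.90 TPM. Late it had 2.33, 2.22, 2.66, 4.19, 9.04 and 11.3 TPM, against medians of 1.76, 2.11, 3.61, 5.43, 9.79 and 16.8 TPM. Levels were higher at days 27 and 39 than before in both groups. NR3C1 differed by 0.21 ± 0.08 early (adjusted p = 0.0661) and -0.16 ± 0.10 late (adjusted p = 0.400, limma). Of all tested genes 5.89% rose and 12.6% fell early, and 3.57% rose and 6.45% fell late. Of 15 tested genes of the receptor and its chaperones, 0 rose and 5 fell early, by 0.08 to 0.31, and late 1 rose, FKBP5, and 1 fell, HSP90AB1. With the libraries of days 4, 15 and 21 left out, 1 rose and 3 fell early, and 1 rose and 0 fell late.

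FKBP5, the co-chaperone that limits receptor activity and is induced by it, had 85.6, 54.3, 42.7, 25.0 and 13.6 TPM in the early Dexamethasone libraries, against non-toxic medians of 68.6, 45.5, 37.0, 27.0 and 14.5 TPM. It was above the non-toxic range on days 1 to 3 and inside it on days 4 and 6. From day 8 it had 11.4, 10.8, 8.37, 15.2, 29.5 and 45.2 TPM, against medians of 8.36, 6.41, 6.91, 4.72, 4.66 and 3.62 TPM. All 6 late libraries lay above the range, by most on day 39. FKBP5 differed by 0.11 ± 0.04 early (adjusted p = 0.0706) and rose by 1.47 ± 0.19 late (adjusted p = 6.50e-09, limma). The late-minus-early difference was 1.36 ± 0.19 (adjusted p = 2.61e-08). Without the library of day 4 the early difference of FKBP5, 0.16, passed the threshold (adjusted p = 0.00917).

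Genes known to be induced by glucocorticoids rose more often than genes at large, but most were not called. Of 29 tested members, FKBP5 among them, 6 rose and 4 fell early, and 6 rose and 2 fell late, with medians of 0.09 and 0.07. Of all tested genes 5.89% rose and 12.6% fell early, and 3.57% rose and 6.45% fell late. The falls of the list were thus near the general share. Without the libraries of days 4, 15 and 21 the counts were 9 and 2 early and 5 and 0 late. TSC22D3, which encodes the anti-inflammatory protein GILZ, averaged 46.2 ± 3.72 TPM with Dexamethasone and 35.0 ± 7.50 TPM in non-toxic libraries early, and 102 ± 21.4 against 81.4 ± 9.91 TPM late. It rose by 0.41 ± 0.06 and 0.30 ± 0.05. HIF3A, a hypoxia-inducible factor subunit, rose by 0.74 ± 0.10 and 1.11 ± 0.11 and was above the range on 10 of 11 days. The transcription factor CEBPD rose early by 0.78 ± 0.20 and differed by -0.07 ± 0.16 late (adjusted p = 0.870, limma). MT2A, a metallothionein, rose late by 1.04 ± 0.21 and FAM107A by 0.57 ± 0.13. ANGPTL4, a lipoprotein lipase inhibitor, rose by 0.75 ± 0.19 early and 1.24 ± 0.35 late, the late value being 0.99 (adjusted p = 0.198) without the libraries of days 15 and 21.

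Several classical targets were called in neither window. The clock gene PER1 differed by 0.09 ± 0.05 early and -0.04 ± 0.07 late, and DUSP1, a MAP kinase phosphatase, by -0.11 ± 0.06 and -0.07 ± 0.06. KLF9 differed by 0.09 ± 0.07 and 0.13 ± 0.09, and ZBTB16 by -0.03 ± 0.09 and 0.31 ± 0.19. TXNIP, an inhibitor of thioredoxin, fell by 0.43 ± 0.07 early and by 0.45 ± 0.12 late. DDIT4, an inhibitor of mTORC1, rose by 0.19 ± 0.05 early and fell by 0.53 ± 0.13 late. Neither late fall was called without the libraries of days 15 and 21 (adjusted p = 0.0541 for TXNIP and 0.134 for DDIT4, limma). Of 13 tested inflammatory genes that glucocorticoids are known to repress, 1 fell early and 4 late, and none rose. Of all tested genes 12.6% fell early and 6.45% late. The chemokine CCL2 had 17.4 and 9.20 TPM on days 27 and 39 with Dexamethasone, against medians of 62.1 and 34.7 TPM. It differed by -0.17 ± 0.19 early and -1.40 ± 0.19 late. The chemokine CXCL2 and the adhesion molecules VCAM1 and ICAM1 also fell late, by 0.97 ± 0.19, by 0.81 ± 0.11 and by 0.69 ± 0.17. The fall of ICAM1 was not called without the libraries of days 15 and 21 (adjusted p = 0.179).

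**Figure D3:**
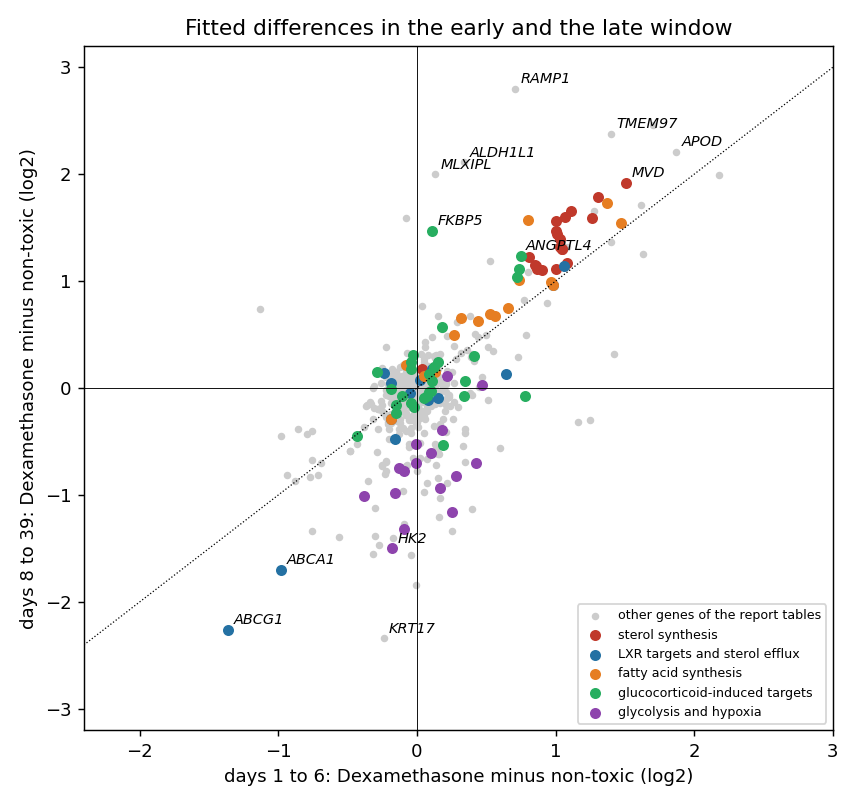
Fitted log2 difference, Dexamethasone minus non-toxic, in days 1 to 6 (horizontal) and days 8 to 39 (vertical), 1 point per tested gene of the lists or named in the text, with 5 lists in colour and a dotted line of equal differences. Sterol synthesis genes other than PMVK lie at the upper right, ABCG1 and ABCA1 at the lower left, and most glycolysis and hypoxia genes lie below 0 on the vertical axis and near 0 on the horizontal one.

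Some genes differed more from the non-toxic level after day 6 than before. RAMP1, a subunit of the CGRP receptor, had 5.53, 6.11, 16.7, 46.0, 58.8 and 121 TPM from day 8 with Dexamethasone, against medians of 0.465, 0.460, 1.04, 4.35, 6.85 and 16.1 TPM. In days 1 to 6 it had at most 2.97 TPM with Dexamethasone. RAMP1 rose by 0.71 ± 0.21 early and 2.80 ± 0.20 late, a gain of 2.09 ± 0.27 (adjusted p = 5.35e-09, limma). MLXIPL, which encodes the glucose-sensing factor ChREBP, had at most 0.410 TPM in days 1 to 6 with Dexamethasone. It then had 1.12, 2.86, 3.76, 5.89, 7.07 and 15.3 TPM, while no late non-toxic library exceeded 1.36 TPM. MLXIPL differed by 0.13 ± 0.08 early (adjusted p = 0.272) and rose by 2.00 ± 0.13 late (adjusted p = 3.64e-21, limma).

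ALDH1L1, a folate enzyme used as an astrocyte marker, had 3.00, 3.57, 8.93, 18.5, 28.6 and 70.6 TPM from day 8 with Dexamethasone, against medians of 0.460, 1.07, 1.51, 2.12, 4.42 and 8.20 TPM. It rose by 0.34 ± 0.11 early and 2.11 ± 0.13 late. Astrocyte genes were mixed. Among all tested genes, 5.89% rose and 12.6% fell early, and 3.57% rose and 6.45% fell late. Of 13 tested astrocyte genes, ALDH1L1, SLC1A3, GJA1 and ALDOC rose early and FGFR3 fell, with the same counts without the library of day 4. Late ALDH1L1 and ALDOC rose and AQP4, S100B and SPARCL1 fell, and without the libraries of days 15 and 21 ALDH1L1 rose and none fell. GFAP, the astrocyte filament, had 955, 1635 and 3343 TPM on days 21, 27 and 39 with Dexamethasone, against medians of 1284, 2223 and 3657 TPM. Its late difference was 0.02 ± 0.13 (adjusted p = 0.961, limma). AQP4, the water channel of astrocytes, had 67.9 and 158 TPM on days 27 and 39, against medians of 128 and 292 TPM. The 13 astrocyte genes summed to 677 to 5101 TPM in the late Dexamethasone libraries and to 238 to 6348 TPM in the late non-toxic ones.

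**Figure D4:**
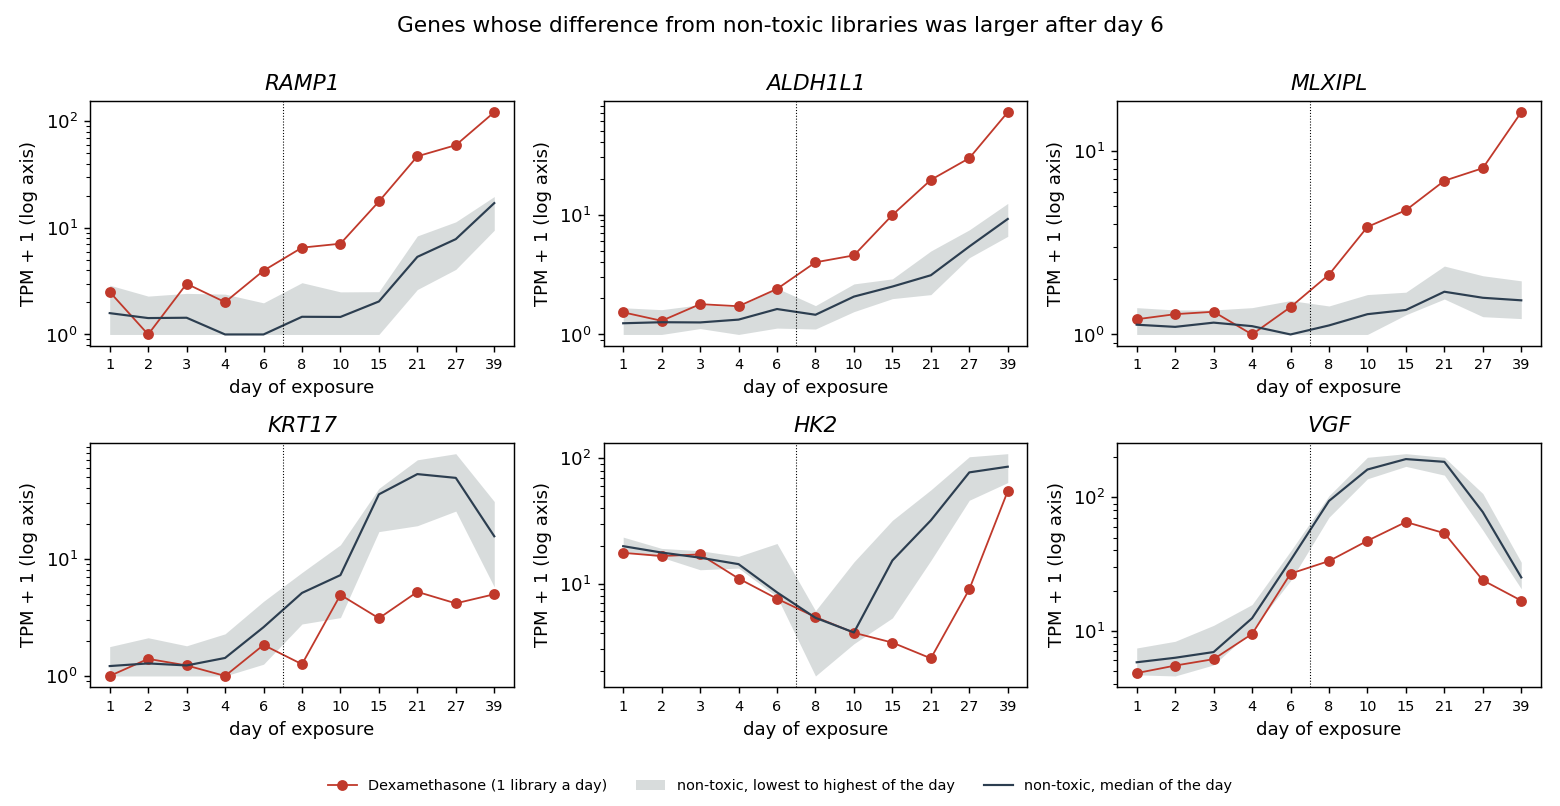
TPM + 1 on a log axis against the day of exposure for 6 genes whose effect differed between the windows, with the Dexamethasone library in red, the non-toxic lowest to highest of the day as a grey band and the non-toxic median as a dark line. RAMP1, ALDH1L1 and MLXIPL lie above the band and VGF below it on all 6 days from day 8, KRT17 lies below it on 5 of them and HK2 on 4.

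Among the late falls KRT17, a keratin, was the largest under the naming rule. It had 0.260, 3.93, 2.11, 4.23, 3.17 and 3.99 TPM from day 8 with Dexamethasone, against medians of 4.12, 6.27, 34.6, 52.0, 48.2 and 14.6 TPM, a fall by 2.34 ± 0.28 (adjusted p = 4.87e-10, limma). KRT7, another keratin, fell by 1.56 ± 0.30, and 2 of 8 epithelial genes fell, or 1 without the libraries of days 15 and 21. The late shares of falls among all tested genes were 6.45% and 2.48%. The costimulatory ligand ICOSLG fell by 1.84 ± 0.19. VGF, a neuropeptide precursor, had 32.3, 46.3, 64.4, 52.9, 22.9 and 15.8 TPM, against medians of 93.1, 161, 193, 184, 76.6 and 24.1 TPM. It was below the range on all 6 days and fell by 1.47 ± 0.09 (adjusted p = 1.23e-22). SST, the interneuron peptide somatostatin, had 43.5, 66.4, 48.4 and 48.7 TPM on days 15 to 39, against medians of 114, 136, 123 and 68.2 TPM, and fell by 1.27 ± 0.12. The kinase SIK1 fell by 1.38 ± 0.13 and IGFBP3, an IGF binding protein, by 1.21 ± 0.21. CACNG5, an auxiliary subunit of AMPA receptors, fell by 1.55 ± 0.26, but differed by -0.77 (adjusted p = 0.0756) without the libraries of days 15 and 21.

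Glycolysis and hypoxia genes fell in the late window, with a count that depended on the libraries used. Late falls took in 6.45% of all tested genes, or 2.48% without the Dexamethasone libraries of days 15 and 21. Of 16 tested genes, 2 rose and 2 fell early, and 0 rose and 14 fell late, with medians of 0.05 and -0.76. Without the Dexamethasone libraries of days 15 and 21, 4 fell, CA9, SLC2A1, PGK1 and ANKRD37, and the median was -0.51. Without that of day 27 alone 9 fell, and against DMSO libraries alone 0 did. The median same-day difference of the list was 0.23 on day 8, -0.07 on day 10, -0.93 on day 15, -1.52 on day 21, -1.96 on day 27 and -0.39 on day 39. The library of day 27 had a length slope of 0.00954, inside the non-toxic range of that day. There 15 of 16 members lay below every non-toxic library, as did 14.3% of all tested genes.

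HK2, the inducible hexokinase, had 4.41, 3.05, 2.38, 1.53, 8.01 and 53.8 TPM from day 8 with Dexamethasone, against medians of 4.33, 3.07, 14.3, 31.0, 76.3 and 84.8 TPM. It lay inside the non-toxic range on days 8 and 10 and below it on the next 4 days. HK2 fell by 1.50 ± 0.29 (adjusted p = 9.20e-05, limma), but differed by -0.90 (adjusted p = 0.0858) without the libraries of days 15 and 21. VEGFA, the hypoxia-induced growth factor, had 33.2 TPM on day 27 with Dexamethasone, against a median of 154 TPM, and 336 TPM on day 39, against 280 TPM. LDHA, a lactate dehydrogenase, had 184 TPM on day 27, against 694 TPM, and 651 TPM on day 39, against 809 TPM. In non-toxic libraries the medians of HK2, VEGFA and LDHA were higher on day 15 than on day 10 and went on upwards to day 39, whereas with Dexamethasone most of the increase lay between days 27 and 39.

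Smooth muscle genes depended on the same libraries. In the late window 6.45% of all tested genes fell, or 2.48% without the libraries of days 15 and 21. Of 10 smooth muscle genes tested, 6 fell late with a median of -0.60, and 1 fell without those libraries. They summed to 235 to 503 TPM in the late Dexamethasone libraries and to 217 to 1552 TPM in the late non-toxic ones. Of 13 mesenchymal and matrix genes, 4 fell late, and 0 without those libraries. All 13 lay below the non-toxic range on day 15, with a median same-day difference of -1.04, and on day 27, with -0.78. Of all tested genes 47.9% and 14.3% lay below it on those days. On day 10, 6 lay above it, as did 13.2% of all tested genes. They summed to 972 to 10713 TPM in the late Dexamethasone libraries and to 162 to 11990 TPM in the late non-toxic ones. The part of smooth muscle and mesenchymal cells in the other late falls was not tested. Microglial genes were near 0, with a sum of at most 0.97 TPM in late Dexamethasone libraries and 1.75 TPM in late non-toxic ones, and AIF1, TYROBP and C1QB were listed at 0 in all late Dexamethasone libraries.

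Neural identity genes shifted by small amounts. Of all tested genes, 5.89% rose and 12.6% fell early, and 3.57% rose and 6.45% fell late. Of 12 neural progenitor genes, 3 rose and 6 fell early, and 1 rose and 2 fell late. These counts, without the libraries of days 4, 15 and 21, were 2 and 5 early, and 0 and 1 late. PAX6, a patterning factor of progenitors, fell early by 0.37 ± 0.05, and SOX2, a factor of neural stem cells, by 0.12 ± 0.03. Of 14 neurogenic factors, 1 rose and 7 fell early, by 0.12 to 0.22, and 1 fell late. Without those libraries 0 rose and 7 fell early, and 0 rose and 0 fell late. Of 14 genes of G2 and mitosis, 8 fell early, by 0.10 to 0.26, among them the proliferation marker MKI67 by 0.26 ± 0.04, and 0 fell late. The early days differed among themselves. On day 1 all 14 members lay below the non-toxic range, as did 14.8% of all tested genes, with a median same-day difference of -0.38. On day 3, 6 lay above it and 0 below, against 12.1% and 12.6% of all tested genes, with a median of 0.12. The 14 pan-neuronal genes summed to 7873 to 10417 TPM in the late Dexamethasone libraries and to 6792 to 10560 TPM in the late non-toxic ones. Of 9 tested GABAergic genes, GAD1, GAD2 and SST fell late, and 2 fell without the libraries of days 15 and 21.

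Among early changes outside these lists, PRUNE2 rose by 1.63 ± 0.09 early and 1.25 ± 0.13 late and was above the range on all 11 days. F3, tissue factor, rose early by 1.25 ± 0.18, with 21.3 TPM on day 1 against a median of 3.28 TPM, and differed by -0.30 ± 0.13 late. CLDN11, a tight junction protein of myelin, rose early by 1.42 ± 0.16. Early falls included the cytokine IL33 by 0.94 ± 0.11, SYTL2 by 0.88 ± 0.08, elastin (ELN) by 0.77 ± 0.10 and the transketolase-like TKTL1 by 0.76 ± 0.05. These 4 genes also fell late. PCP4, a calmodulin regulator of neurons, fell early by 0.86 ± 0.25 and late by 0.38 ± 0.06, and without the library of day 4 its early difference was -0.65 (adjusted p = 0.105). UQCRHL and RGPD2 met the naming rule too but have near-identical relatives whose reads cannot be told apart here. KIAA0408 had 45.0 and 31.8 TPM on days 15 and 21, and its late difference was 0.06 without these libraries.

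Against the 255 libraries of the other 28 toxic compounds, 13 genes rose (0.0797% of those tested) and 1 fell (0.00613%). Of the 20 sterol synthesis genes, 9 were among the 13, and the others were TMEM97, ACSS2, INSIG1 and C14orf1. TMEM97 rose by 1.99 ± 0.35 (adjusted p = 4.42e-04, limma), ACSS2 by 1.54 ± 0.29 (adjusted p = 0.00268) and MVD by 1.73 ± 0.36 (adjusted p = 0.0106). The gene that fell was ABCG1, by 1.83 ± 0.40 (adjusted p = 0.0106). FKBP5 differed by 0.71 ± 0.48 (adjusted p = 1.000).

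As a mean over days of the same-day difference, Dexamethasone stood first of 45 compounds for MVD at 1.74, followed by Bis-I at 0.59 and Amiodarone at 0.51. It stood first for the median of the sterol synthesis genes at 1.17, followed by Bis-I at 0.29. It was also first for TMEM97 at 1.94, with Bis-I next at 0.77. For ABCG1 it was lowest at -1.85, next to Maneb at -1.79, a compound with 1 library. For ABCA1 Maneb was lower, at -2.71, and Dexamethasone followed at -1.38. For FKBP5 Dexamethasone was at 0.84, below Hydroxyurea at 1.55, Okadaic acid at 1.32 and Cytosine Beta-D-arabinofuranoside at 1.10. The last 2 compounds have 5 libraries each and none from day 8 on. Over days 8 to 39 alone, Dexamethasone was second of 37 compounds at 1.46, after Hydroxyurea at 1.92. For RAMP1 it was at 1.85, below that compound at 2.97 and 2 retinoids at 2.79 and 2.60. These ranks are descriptions, and compounds differ in the days sampled.

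**Figure D5:**
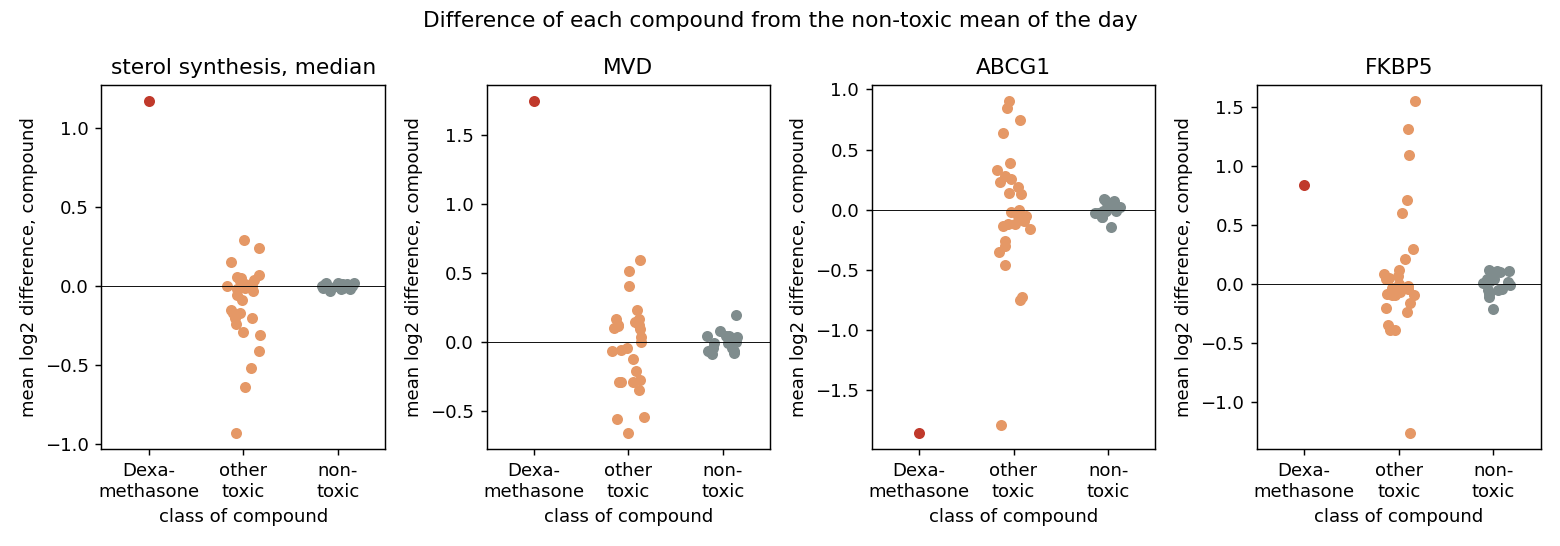
Mean over days of the log2 difference from the non-toxic mean of the day, 1 point per compound, for Dexamethasone, the other toxic compounds and the non-toxic compounds, shown for the median of the sterol synthesis genes, MVD, ABCG1 and FKBP5. Dexamethasone is the highest point for the sterol median (1.17) and MVD (1.74), the lowest for ABCG1 (-1.85), and within the range of the other toxic compounds for FKBP5 (0.84).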

How the data were processed

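The authors deposited 1 table of TPM values per gene for 414 libraries. Per the submitters' processing notes, CASAVA 1.8.2, RSEM 1.2.1, Bowtie 0.12.8 and hg19 were used, and RNA came from wells lysed on the plate and was prepared with the TruSeq RNA v2 kit, per the labels' protocols and the series' design text. Column sums ran from 999999.07 to 1000001.05, so read depth is unknown. Of 19084 genes, the 16318 that reached 1 TPM in 5 or more libraries entered the tests, on log2(TPM + 1).

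Fits used limma 3.58.1 with an intensity trend in R 4.3.3, with an estimated correlation within compounds, for days 1 to 6, days 8 to 39, all days, the difference between windows and the other toxic compounds. The smallest correlation was 0.01239 and the largest, for the toxic compounds, 0.5312. On simulated data with planted changes the steps were tested before use. Length slopes used genes of at least 10 TPM.

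Genes named were the 12 largest called rises and falls per window with a mean of at least 1 TPM in either group, the same sign on most days, the 5 largest each way between windows, MVD, ABCG1, FKBP5 and list members. Some of these genes are counted here but not reported singly. Members and lists were chosen with earlier results of these data known. Alternatives are given in the closing section.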

Additional observations from a re-analysis of the deposited data

Results flagged for a closer look

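In 4 of 47 gene and window pairs looked at, 1 Dexamethasone library stood apart from the others of its window. Among independent replicates chance alone marks about 1 in 20. The libraries here are of different days and the genes were picked as extremes, so the 4 cannot be judged against that rate. APOD had a same-day log2 difference of 4.33 on day 39, with the next at 1.98. On day 1, MVD had 2.22 against 1.38 for the next and ACSS2 had 2.47 against 1.33, so both were highest on the first day of exposure. VGF differed least from the non-toxic libraries on day 39, with -0.59, and the next was -1.46.

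Of 41 named genes, 27 had a Dexamethasone effect that differed between days 8 to 39 and days 1 to 6 by limma's test of that difference, given here as late minus early on the log2 scale. Of all tested genes 5.37% did, or 1.89% without the libraries of days 4, 15 and 21. The naming rule took the largest called differences between windows and the extremes of single windows. The count of 27 was therefore partly fixed by selection. The effect was higher in the late window in PLA2G3 (0.75), MVD (0.41), TMEM97 (0.98), UQCRHL (1.86), RAMP1 (2.09), ALDH1L1 (1.77), MLXIPL (1.86), DHCR7 (0.48), INSIG1 (0.39), KIAA0408 (1.67) and FKBP5 (1.36). It was lower in CLDN11 (-1.10), ABCG1 (-0.90), ABCA1 (-0.72), SPON2 (-0.58), KRT17 (-2.10), ICOSLG (-1.84), KRT7 (-1.53), CACNG5 (-1.24), HK2 (-1.32), VGF (-1.20), CCL2 (-1.22), MAMDC2 (-0.83), SIK1 (-1.08), GABRQ (-1.59), F3 (-1.55) and RGPD2 (-1.53). For genes that rose in both windows a higher value means a larger late rise, and for ABCG1, ABCA1 and SPON2, which fell in both, a lower value means a larger late fall. UQCRHL and RGPD2 have near-identical relatives, and their differences were not called without the libraries of days 4, 15 and 21, nor were those of MVD, ABCA1, SPON2, INSIG1, CACNG5, HK2, MAMDC2 and KIAA0408.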

How the results depend on the processing

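Counts of called genes moved most with the libraries used. Against the 11 DMSO libraries alone, with day as the replicate block that pairs them with Dexamethasone, 488 genes were called over all days (2454 otherwise), 60 early (3014), 101 late (1635) and 0 between windows (877, with 1267 at an unadjusted p under 0.05 under the block, limma). Fewer libraries enter that fit, and rises outnumbered falls there, by 284 to 204 over all days, 52 to 8 early and 89 to 12 late, whereas falls outnumbered rises in the reported counts. Without ibuprofen the counts were 4667 over all days, 3917 late and 2170 between windows, and without its day 8 library alone 4698, 3977 and 2250. With the length slope as a covariate they were 4092 (2232 rises), 3632 (1837 rises) and 2380. Without days 15 and 21 altogether they were 1535, 665 and 469, and without the Dexamethasone libraries of days 4, 15 and 21 846 late and 309 between windows. Leaving out 1 Dexamethasone library at a time gave 1817 to 3023 over all days, 2222 to 3085 early, 1064 (without day 21) to 2472 (without day 39) late and 511 to 1669 between windows. Against the other toxic compounds, 28 genes were called (14 otherwise) without the 8 compounds lacking days 8 to 21. The cause was not tested.

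Of 1340 values of named genes and comparisons under these alternatives, other pseudocounts, filters, centring and no compound block, 1237 kept direction and side of the threshold, 97 were no longer called, 6 became called and 0 changed sign. Of the 97, 48 came from the DMSO block. There 15 of 20 sterol synthesis genes rose early and 19 late. Depth limits cannot be set from TPM.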

Other observations

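Shares of all tested genes were 5.89% for rises and 12.6% for falls early, and 3.57% and 6.45% late. Of 11 NRF2 targets, genes of the response to oxidants, 4 rose in days 1 to 6 and 6 in days 8 to 39. None fell, and the medians were 0.11 and 0.33. Without the libraries of days 15 and 21, 4 rose late. The late rises included NQO1 by 0.36 ± 0.11, HMOX1 by 0.39 ± 0.11 and SLC7A11, a cystine importer, by 0.62 ± 0.09. Of 13 genes of interferon response and antigen presentation, 6 rose early, by 0.13 to 0.40, and none fell. Late 1 rose and 1 fell. On days 8 and 10, 7 and 9 members lay above the non-toxic range, as did 18.3% and 13.2% of all tested genes. From day 15 to day 39, 0 lay above it. Below it lay 4 on each of days 15 and 21, against 47.9% and 45.1% of all tested genes. On each of days 27 and 39, 6 lay below, against 14.3% and 20.9%. Of 10 tested genes of the IGF axis, which signals growth, 4 fell late, IGF2, IGFBP2, IGFBP3 and IGFBP4, and none rose. Of 17 genes of BMP and WNT signalling, 6 fell early, or 4 without the library of day 4. The shares of all tested genes were 12.6% and 8.05%. Late 1 fell, a share no higher than the 6.45% of all tested genes. None of 7 tested targets of the xenobiotic receptor PXR was called in either window.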
